A study of Rattus norvegicus with 8 samples.

Results

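The core circadian clock was followed in rat liver through 10 genes, taken by symbol from the array annotation: the activators Npas2, Arntl and Clock, the repressors Per1, Per2, Per3, Nr1d1 and Bhlhe40, and the output genes Dbp and Nfil3. They are 10 of 19769 named genes on the array and carry 17 of its 30367 probes, each probe a 60-base oligonucleotide. Liver RNA came from 8 male Fisher 344 rats aged 18 weeks, with 1 single-colour (Cy3) Agilent array per animal. The 4 furan rats had received furan, a rodent liver carcinogen, by gavage for 90 days (8 mg per kg body weight each day, 5 days per week), and the other 4 rats were controls. All were killed 24 hours after the last treatment, and the liver was frozen. The vehicle given to the controls and the hour of the day at which each rat was killed are not given in the sources used here. Each animal was sampled once, so a shift in the timing of a rhythm and a change in its mean level cannot be told apart in these data. In whole tissue, fewer cells of a type and less RNA per cell cannot be told apart either.

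The mammalian clock is a feedback loop of transcription factors that runs in nearly every cell. A dimer of BMAL1, the product of Arntl, with CLOCK or NPAS2 binds E-boxes and switches on the Per and Cry genes, whose proteins return to the nucleus and inhibit that dimer. NR1D1 (REV-ERB alpha) represses Arntl and Npas2 through ROR elements, and BHLHE40 (DEC1) competes at E-boxes. DBP activates and NFIL3 (E4BP4) represses genes with a D-box, which passes the rhythm on to liver metabolism. In normal liver the transcripts of Arntl and Npas2 and those of Dbp and the Per genes peak at different times of day.

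The elements that tie these genes together were looked for in 300-base windows, from 250 bases before to 50 bases after each gene start, in the RefSeq promoter table of the GRCr8 build. All 10 genes had a window there, 12 windows in all because Clock and Nr1d1 have more than 1 start. Both strands were searched for the E-box CACGTG, held by 6.42% of 33469 rat promoters of this length, for the D-box TTATGTAA or TTACGTAA, held by 1.01%, and for the ROR element core TAGGTCA or TGGGTCA, held by 6.6%. No window held more than 1 match, so no matches overlapped. A match is a run of letters and not evidence of binding. The 4 matches, 1 in each of 4 genes, are shown because each gene is both a target and a part of the loop; capitals mark the element, and each sequence reads 5′ to 3′ on the strand of its gene.
Arntl, ROR element core 16 bases before the start, chr1:176766262-176766327, plus strand: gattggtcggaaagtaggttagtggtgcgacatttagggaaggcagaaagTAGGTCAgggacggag
Bhlhe40, E-box 220 bases before the start, chr4:143174200-143174285, plus strand: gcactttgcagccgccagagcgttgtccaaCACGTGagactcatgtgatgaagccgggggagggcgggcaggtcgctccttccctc
Per2, D-box 192 bases before the start, chr9:99497128-99497235, minus strand: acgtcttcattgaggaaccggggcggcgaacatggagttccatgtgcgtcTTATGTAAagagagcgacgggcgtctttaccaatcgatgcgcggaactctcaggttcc
Nr1d1, E-box 191 bases before its second start, chr10:84229590-84229695, minus strand: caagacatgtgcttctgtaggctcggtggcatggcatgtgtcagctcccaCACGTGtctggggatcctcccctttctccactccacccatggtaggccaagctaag

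Every level below is the log2 processed signal of a probe with the 75th percentile of its array (control spots left out) set to 0. A difference is furan minus control on that log2 scale, with its standard error (SE) from limma, and a probe was called at an adjusted p below 0.05 (Benjamini-Hochberg over 20268 tested probes, two-sided). Probes bind with different strength, so only the same probe is compared between livers. The 75th percentile lay between 827 and 1057 intensity units on control arrays and between 1256 and 1596 on furan arrays, and no spot was saturated. Control 2 and furan 1 had the most variable replicate spots, with a median coefficient of variation of 9.38% and 12.8% against 4.20% to 7.57% on the other arrays. Arrays 1 and 2 of each group shared slide 1, and arrays 3 and 4 of each group shared slide 2.

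Furan livers had higher Dbp and Per2 signal and lower Arntl, Nfil3, Bhlhe40 and Nr1d1 signal than controls, and no call was made for Clock or Per1. Npas2 was called lower on 1 of its 2 probes. Per3 was called higher on 2 dim probes and not on its brightest probe. Neither dim probe was called with normexp background correction, which cannot decide at so low a signal. All 17 clock probes could be tested, 16 of them above background on every array; Per3 probe 2 entered only through its furan arrays, where it is high. Of them 6 were called higher, 6 lower and 5 were not called, against 16.9% of all tested probes called higher and 16.9% called lower, or 33.8% in either direction. Over probes above background on every array, 5 clock probes were called higher and 6 lower, beside 16.9% and 18.3% of all such probes. On 10 of the 17 probes, Per3 probe 2 among them, the furan and control livers did not overlap, where 36.4% of all tested probes did not. A called probe was found for 8 of the 10 genes. With only the brightest probe of each gene, 2 genes were called higher, 5 lower and 3 were not called, beside a background of 34.0%. The activators had a median difference of -0.64 over 6 probes, the repressors -0.089 over 7 and the outputs 1.74 over 4, while all tested probes had a median of -0.033 and a median size of 0.36. Genes with more probes weigh more in these medians, and 3 of the 4 output probes are of Dbp. By the brightest probe per gene the medians were -0.70, -0.45 and 0.41, and the 2 output genes moved in opposite directions.

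**Figure D1:**
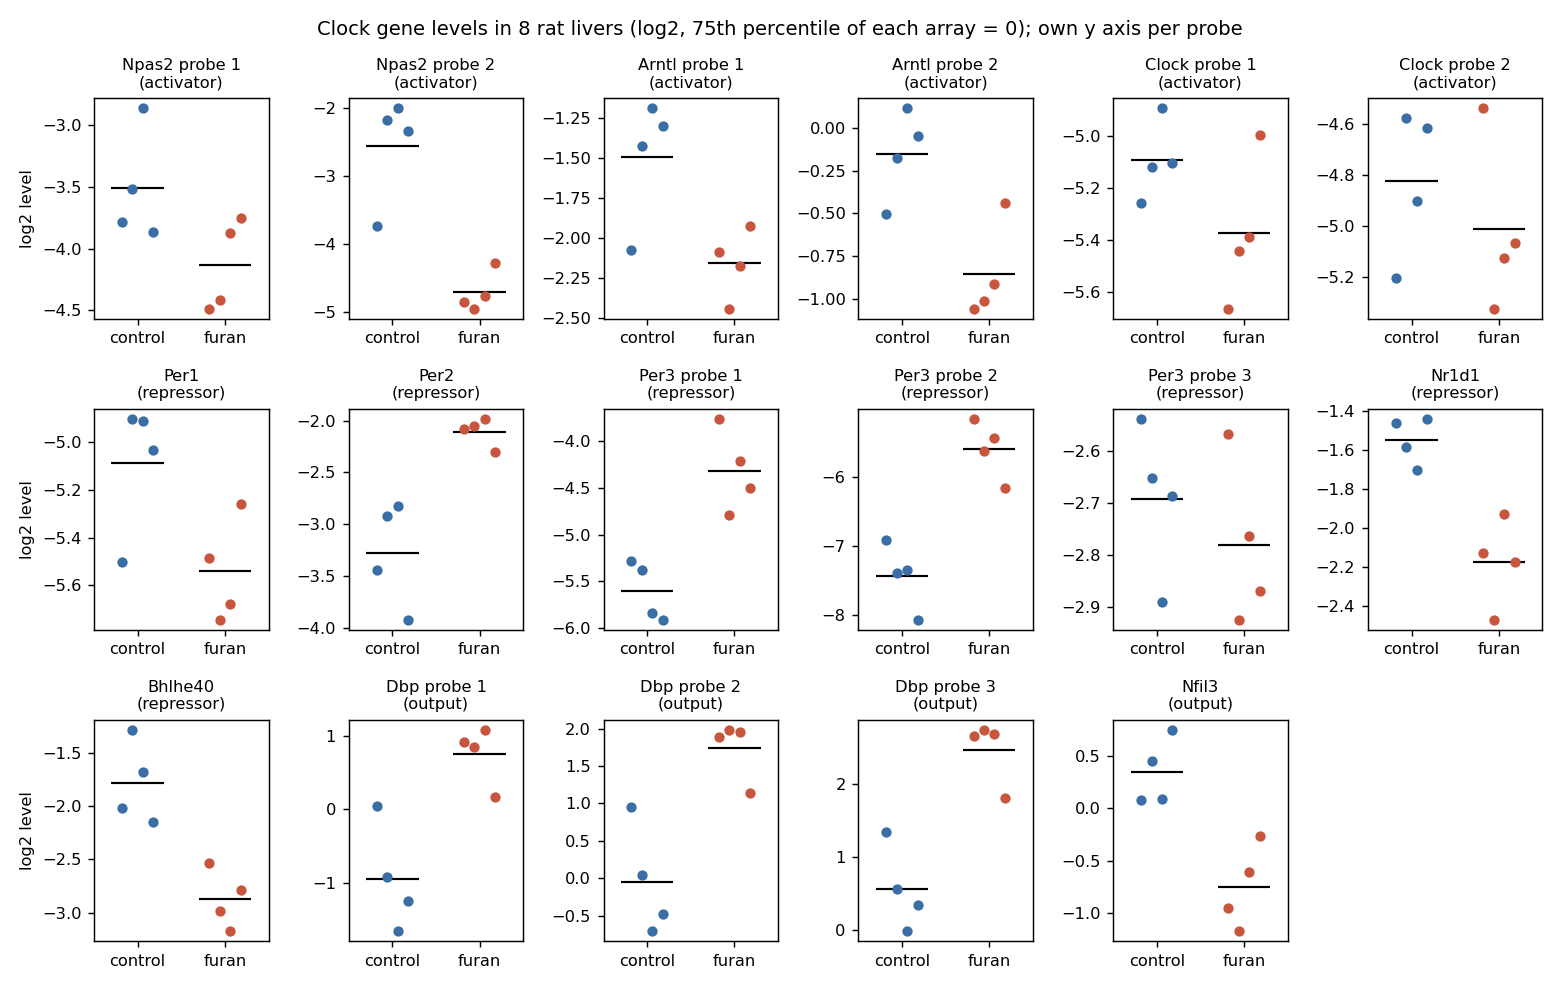
Level of each clock gene probe in each liver: every panel is 1 probe with its own y axis (log2, 75th percentile of the array at 0), points are the 4 control and 4 furan livers, and bars are group means. The furan and control points do not overlap in 10 of the 17 panels, among them all 3 panels of Dbp.

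**Figure D2:**
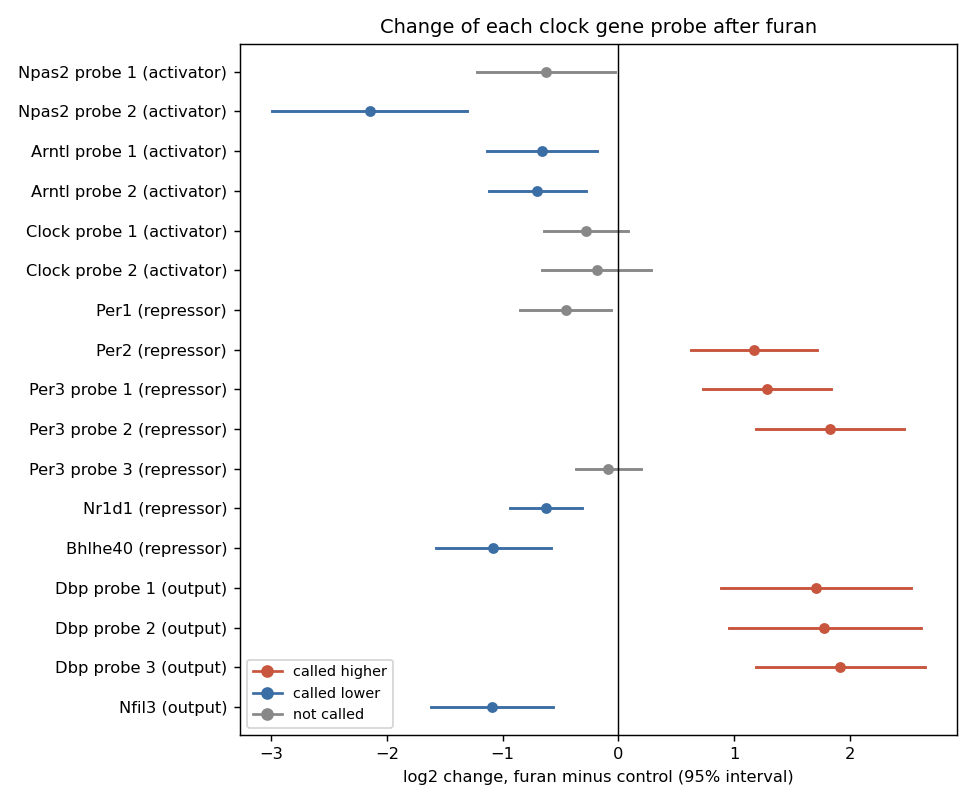
Furan minus control for each clock gene probe (log2, x axis), with points at the difference of means and bars for the 95% interval of limma. The 3 Dbp probes, Per2 and 2 of 3 Per3 probes lie above 0, and no activator probe does.

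Among the activators, Npas2, the partner of BMAL1 that can stand in for CLOCK, gave the largest fall of any clock probe, on 1 of its 2 probes. That probe (probe 2, chromosome 9 from 38433884 to 38433943 on the rn4 build) had levels of -3.74, -2.18, -2.003 and -2.34 in controls 1 to 4. In furan livers 1 to 4 it stood at -4.86, -4.96, -4.77 and -4.28. All 4 furan livers lay below all 4 controls, and control 1 was the lowest control by a wide margin. The difference was -2.15 ± 0.37 SE, a 4.44-fold lower signal (95% interval from -2.99 to -1.31, limma adjusted p = 0.00389), and it was -1.95 on slide 1 and -2.35 on slide 2.

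The other Npas2 probe (probe 1) lies 16328 bases upstream on the same chromosome, from 38417496 to 38417555, and did not pass the test. It is shown because the 2 probes of this gene differ in size of change: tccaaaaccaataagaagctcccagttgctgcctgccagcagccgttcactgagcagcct. Its levels were -3.78, -3.51, -2.86 and -3.87 in controls and -4.49, -4.42, -3.87 and -3.75 in furan livers, so furan 4 lay among the controls and furan 3 next to the lowest of them. The difference of -0.63 ± 0.26 SE had a limma adjusted p of 0.0984 and a 95% interval from -1.23 to -0.026. Whether the 2 probes read different transcripts of Npas2 was not tested.

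Arntl, the obligatory subunit of the activating dimer, fell on both of its probes by a similar amount. The brighter probe (chromosome 1 from 171161969 to 171162028, rn4) had levels of -0.51, -0.18, 0.12 and -0.047 in controls and -1.06, -1.01, -0.92 and -0.44 in furan livers. Furan 4, the highest furan liver, lay just above control 1, the lowest control, and the other livers were apart. The difference was -0.70 ± 0.18 SE (1.63-fold lower, limma adjusted p = 0.02). The second Arntl probe, 7142 bases upstream, gave -2.07, -1.42, -1.19 and -1.30 in controls and -2.09, -2.44, -2.18 and -1.92 in furan livers. Its difference of -0.66 ± 0.21 SE was also called (limma adjusted p = 0.0395), with control 1 again at the level of the furan livers. Both Arntl calls lay near the threshold. By limma, the brighter probe missed it without control 3 (-0.61, adjusted p = 0.0559), control 4 (-0.67, 0.0527) or furan 2 (-0.65, 0.0591). The second probe missed it with no filter on dim probes (-0.66, 0.0805) and without any 1 of control 2, 3 or 4 or furan 1, 2 or 3 (-0.69 to -0.56, adjusted p from 0.0598 to 0.106). The differences themselves moved little.

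Clock, the other partner of BMAL1, was measured near the low end of the range and gave no call on its 2 probes. The first (chromosome 14 from 34243744 to 34243803, rn4) averaged -5.09 ± 0.15 in controls and -5.37 ± 0.28 in furan livers (SD, n = 4 each), and the second -4.82 ± 0.29 and -5.01 ± 0.34. Their differences were -0.28 ± 0.16 SE (95% interval from -0.64 to 0.08) and -0.19 ± 0.21 SE (from -0.66 to 0.28), with limma adjusted p of 0.202 and 0.509. With normexp background correction, which also moved the median of all probes to -0.19, both were called lower, at -0.44 (limma adjusted p = 0.00846) and -0.38 (0.017). The first Clock probe was called without furan 4 as well, at -0.41 (limma adjusted p = 0.0492).

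The repressors moved in both directions. Per2, an inhibitor of the activating dimer, rose on its single probe, which is printed on 10 spots of each array (chromosome 9 from 90645610 to 90645669, minus strand, rn4). Controls 1 to 4 had levels of -3.44, -2.92, -2.82 and -3.92, and furan livers 1 to 4 had -2.08, -2.05, -1.99 and -2.30. The furan livers lay close together and all above the controls, which spread over more than 1 log2 unit. The difference was 1.17 ± 0.24 SE, or 2.25-fold (95% interval from 0.63 to 1.71, limma adjusted p = 0.0072), at 1.11 on slide 1 and 1.23 on slide 2. The repeated spots of an array had an SD of 0.057 to 0.092 on 6 arrays, 0.23 on control 1 and 0.47 on furan 1.

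Per3, a relative of Per1 and Per2, was read by 3 probes that did not give 1 answer. They lie on the minus strand of chromosome 5 (rn4): probe 1 from 168155353 to 168155412, probe 2 from 168152839 to 168152898, and probe 3 from 168152779 to 168152838, so probe 3 begins at the base after the end of probe 2. Probes 1 and 2, which rose, are shown here; probe 2 closes with TGA, written in capitals, at the end of an open reading frame in its first frame.
Per3 probe 1: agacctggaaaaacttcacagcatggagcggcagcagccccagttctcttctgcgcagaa
Per3 probe 2: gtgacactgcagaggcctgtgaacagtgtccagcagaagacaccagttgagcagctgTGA

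Per3 probe 1 had levels of -5.28, -5.38, -5.84 and -5.91 in controls and -3.77, -4.79, -4.21 and -4.50 in furan livers. Probe 2 was dimmer still, at -6.91, -7.39, -7.34 and -8.06 in controls and -5.16, -5.63, -5.44 and -6.16 in furan livers. On both probes all furan livers lay above all controls. The difference on probe 1 was 1.29 ± 0.24 SE (limma adjusted p = 0.00544). Probe 2 was well above background on 1 of 4 control arrays and on all 4 furan arrays, so it was tested only through the group where it is high, and its difference of 1.83 is given as a description. Probe 3, the brightest, had -2.54, -2.65, -2.89 and -2.69 in controls and -2.57, -2.92, -2.76 and -2.87 in furan livers. The groups overlapped fully there, with a difference of -0.089 ± 0.12 SE (95% interval from -0.37 to 0.19, limma adjusted p = 0.608). With normexp the difference was 0.21 on probe 1 (limma adjusted p = 0.245) and -0.088 on probe 2 (0.506). That setting used an offset of 50 intensity units. On control arrays probe 1 read only 16.34 to 23.42 units and probe 2 only 3.68 to 7.07. On furan arrays probe 1 read 55.39 to 109.33 units and probe 2 read 17.59 to 42.78. An offset above the control signal shrinks a ratio, and normexp also moved the median of all probes to -0.19. For these reasons normexp cannot decide whether these probes rose, and what turned the sign on probe 2 was not tested. Without normexp the Per3 rise was seen on its 2 dim probes alone.

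Per1, the remaining Per gene, was not called. Its probe (chromosome 10 from 55866200 to 55866259, rn4) had levels of -5.50, -4.90, -4.91 and -5.03 in controls and -5.49, -5.74, -5.68 and -5.26 in furan livers. Control 1 lay inside the range of the furan livers, and the other 3 controls lay above it. The difference was -0.45 ± 0.17 SE (95% interval from -0.85 to -0.061, limma adjusted p = 0.0725). It was called lower with normexp (-0.52, limma adjusted p = 0.00358), without control 1 (-0.59, 0.0224) and without furan 4 (-0.55, 0.0477). The point estimate was thus below 0 for Per1 and above 0 for Per2, and the difference between the 2 genes was not tested.

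Nr1d1, the repressor of Arntl, fell on its probe (chromosome 10, spanning 87543165 to 87543519 on the minus strand, rn4; the 60 bases span 355 bases of genome). The controls had levels of -1.46, -1.58, -1.70 and -1.44 and the furan livers -2.13, -2.47, -1.93 and -2.17. The controls were the tightest group of any called clock probe, and no furan liver reached them. The difference was -0.63 ± 0.14 SE (1.54-fold lower, limma adjusted p = 0.00944), at -0.78 on slide 1 and -0.48 on slide 2.

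Bhlhe40, whose promoter window holds the E-box printed above, fell about as far as Nfil3. Its probe (chromosome 4 from 144145007 to 144145066, rn4) had levels of -2.02, -1.29, -1.68 and -2.15 in controls and -2.53, -2.98, -3.17 and -2.78 in furan livers. The groups did not overlap. The difference was -1.08 ± 0.22 SE (2.12-fold lower, 95% interval from -1.58 to -0.59, limma adjusted p = 0.00691), at -1.10 on slide 1 and -1.06 on slide 2.

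The 2 output genes, whose proteins act against each other at D-boxes, moved apart. Dbp rose on all 3 of its probes, which lie on chromosome 1 (rn4) from 96178064 to 96178123, from 96178148 to 96178207 and from 96178423 to 96178482. The first 2 are shown because 3 closely spaced probes gave the same answer; capitals again mark a closing TGA.
Dbp probe 1: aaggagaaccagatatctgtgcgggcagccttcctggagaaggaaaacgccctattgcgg
Dbp probe 2: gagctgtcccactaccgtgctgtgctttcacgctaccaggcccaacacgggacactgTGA

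Dbp probe 3, the brightest, stood at 1.35, 0.56, -0.018 and 0.33 in controls and at 2.66, 2.74, 2.68 and 1.81 in furan livers. Probe 1 had 0.042, -0.93, -1.66 and -1.25 in controls and 0.93, 0.85, 1.08 and 0.17 in furan livers. Probe 2 had 0.95, 0.043, -0.70 and -0.48 in controls and 1.88, 1.98, 1.95 and 1.14 in furan livers. On every Dbp probe control 1 was the highest control and furan 4 the lowest furan liver, and even these 2 livers kept the order of the groups. The differences were 1.92 ± 0.32 SE on probe 3, 1.71 ± 0.36 SE on probe 1 and 1.78 ± 0.36 SE on probe 2, a rise of 3.78-, 3.27- and 3.43-fold. The limma adjusted p were 0.0035, 0.00847 and 0.00746. The Dbp rise on probe 3 was 1.75 on slide 1, 2.09 on slide 2 and 1.92 with normexp.

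Nfil3 fell, and its groups did not overlap. Its probe (chromosome 17 from 18107192 to 18107251, rn4) had levels of 0.082, 0.45, 0.09 and 0.74 in controls and -0.96, -1.17, -0.61 and -0.27 in furan livers. The difference was -1.09 ± 0.23 SE (2.13-fold lower, 95% interval from -1.62 to -0.57, limma adjusted p = 0.00844), at -1.33 on slide 1 and -0.86 on slide 2.

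All 17 clock probes had the same sign on both slides. With the slide as a block 6 clock probes were called higher and 6 lower, as without it. On slide 1 alone, with 2 arrays a group, none was called, and on slide 2 alone 5 were called higher and 1 lower, while slide 1 gave 322 and slide 2 gave 939 higher calls over all probes.

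**Figure D3:**
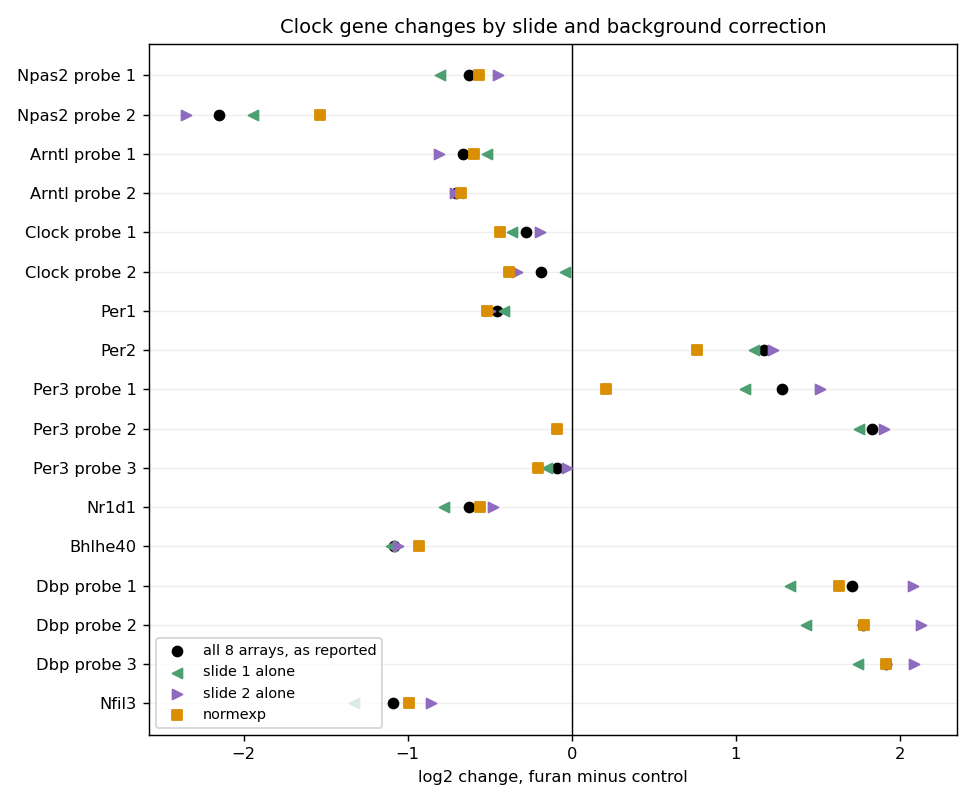
Furan minus control (log2, x axis) of each clock gene probe over all 8 arrays, on slide 1 alone, on slide 2 alone and with normexp background correction. The symbols of a probe lie on 1 side of 0 except for Per3 probe 2, at 1.83 over all arrays and -0.088 with normexp.

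Levels were not uniform within groups either. After subtraction of each group's mean, control 1 stood 0.79 above its group for Dbp, 1.17 below it for Npas2 probe 2, 0.35 below it for Arntl and 0.42 below it for Per1. Furan 4 stood 0.67 below its group for Dbp and above it by 0.42 for Arntl, 0.44 for Npas2, 0.48 for Nfil3 and 0.28 for Per1. Control 1 thus lay on the furan side of its group for these genes, and furan 4 on the control side of its own. Not every clock gene did so. Control 1 stood 0.17 below its group for Per2, which rose, and 0.085 above it for Nr1d1, which fell. Furan 4 stood only 0.001 above its group for Nr1d1. In the same livers the summed level of 7 endothelial markers was 6.45 in control 1 and 19.8 to 23.6 in the other controls, and 12.1 to 14.8 in furan livers. Kdr, the brightest, weighs most in this sum, at 2.29 in control 1 and 4.04 to 4.24 in the other controls. Stab2 and Lyve1 were also low in control 1 (-3.215 and -3.515). Cdh5 was not, at -2.33 beside -2.475 to -2.28 in the other controls. The part of these marker levels in the clock levels was not tested.

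**Figure D4:**
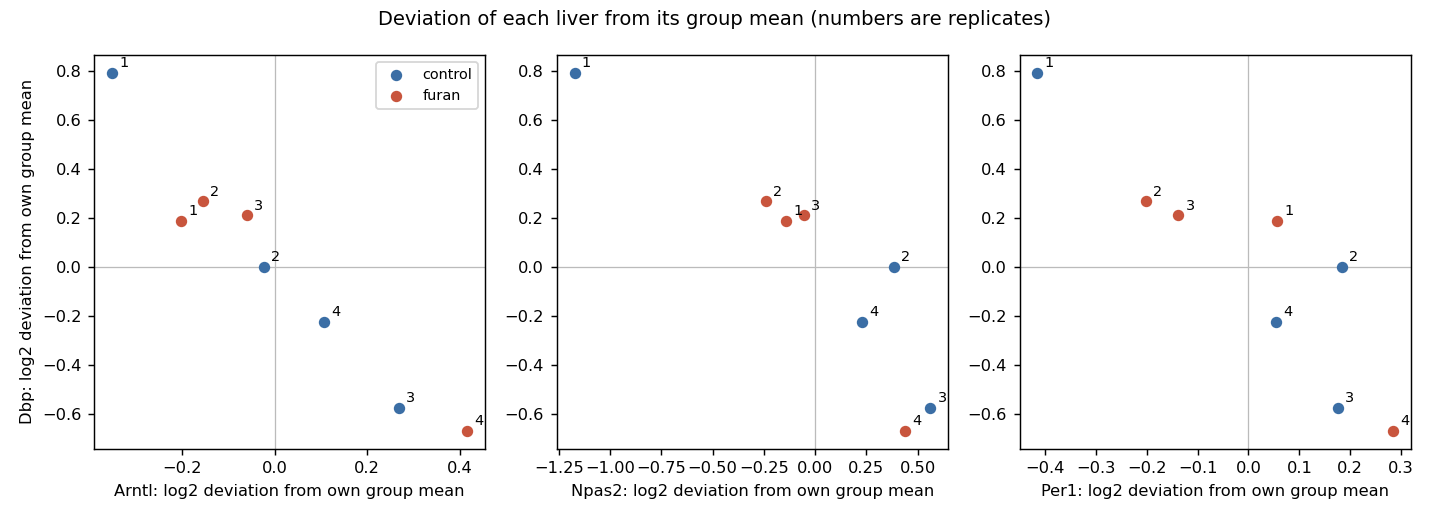
Deviation of each liver from its own group mean (log2) for Dbp on the y axis against Arntl, Npas2 and Per1 on the x axes, each read by its brightest probe; numbers are the replicates of the 4 controls and 4 furan livers. Dbp tends to be high where the other gene is low in each panel, and control 1 and furan 4 lie at the ends of the Dbp axis. Control 3 is the highest liver for Npas2.

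Over the 8 livers, these deviations were correlated for all 45 pairs of the 10 genes, with an exact test that reordered livers within each group (two-sided, 576 arrangements) and Benjamini-Hochberg adjustment over the 45 pairs. The median Pearson r was 0.122. Arntl and Dbp had the lowest r, -0.974 (exact permutation p = 0.00694, adjusted p = 0.156; Spearman rho -0.929, exact p = 0.0226, adjusted p = 0.203), and r was -0.96 without control 1 and furan 4. Npas2 and Dbp had r = -0.911 (exact permutation p = 0.0139, adjusted p = 0.156; rho -0.929, exact p = 0.0122, adjusted p = 0.203), and -0.826 without control 1 and control 3. Npas2 and Per1 had the highest, 0.923 (exact permutation p = 0.0104, adjusted p = 0.156; rho 0.857, exact p = 0.0191, adjusted p = 0.203), and 0.873 without the 2 livers farthest from the median of Npas2. Of the 45 pairs 6 had an unadjusted p below 0.05 and 0 passed after adjustment. All genes of a liver share 1 RNA sample and 1 array.

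The 5 named genes whose deviations over the 8 livers were most like those of Arntl were Slc45a3 (r = 0.957), Dhrs1 (0.956), Vasn (0.952), Sult2a2 (0.949) and Hsd17b13 (0.947), none of them called between the groups. Those most like Dbp were Trpm4 (0.964), RGD1565012 (0.951), Cilk1 (0.95), Zbtb10 (0.938) and Clu (0.934). Trpm4, a cation channel, rose by 1.88 (limma adjusted p = 0.00102) and Cilk1 by 0.58 (0.0131), and the other 3 were not called. These are the highest of many genes and are given as a description with no test.

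Cry1 and Cry2 were higher in furan livers among the rest of the loop. Of 10 other loop factors 7 were on the array and 5 could be tested. Of these 2 were called higher, none lower and 3 were not called, with a median difference of 0.45. Beside this count, 34.0% of all genes were called by their brightest probe. Cry1, which inhibits the activating dimer together with the PER proteins, rose from -1.92, -1.74, -1.37 and -2.04 in controls to -0.99, -1.17, -1.11 and -0.87 in furan livers, with no overlap. The Cry1 difference was 0.73 ± 0.16 SE (limma adjusted p = 0.00952). Cry2 rose by 0.45 ± 0.15 SE (limma adjusted p = 0.045), a call that was lost with the slide as a block (0.0582), with normexp (0.04, 0.783) and without any 1 control or furan 1, 3 or 4 (0.0605 to 0.112). Not called were Rora, an activator at ROR elements (0.47, adjusted p = 0.0522), Tef, a relative of Dbp (-0.32, 0.213), and Nr1d2, the relative of Nr1d1 (-0.002, 0.996), all by limma. Ciart, a repressor of the activating dimer, was named after its values were seen. It was too dim to be tested, well above background on 0 of 4 control and 3 of 4 furan arrays, at -8.83, -7.60, -7.63 and -8.13 in controls and -5.33, -5.71, -6.32 and -6.60 in furan livers.

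Genes that modify or degrade clock proteins gave 3 calls higher, 1 lower and 8 not called among 12 tested, near the share of all genes by their brightest probe (34.0% called), with a median of 0.01. Prkaa1, a catalytic subunit of the AMP-activated kinase that phosphorylates CRY1, rose from -4.53 ± 0.29 to -3.01 ± 0.43 (SD, n = 4 each), a difference of 1.52 ± 0.23 SE (limma adjusted p = 0.00266). Timeless, a replication fork protein tied to the clock, rose by 1.204 ± 0.14 SE (0.00111), and its furan livers all lay above its controls. Csnk1e, a casein kinase that phosphorylates PER proteins, rose by 0.59 on its listed probe (limma adjusted p = 0.0174; 0.0646 with normexp and 0.0504 without furan 2). The Csnk1e probes disagreed, since a second Csnk1e probe was called lower at -0.64 (limma adjusted p = 0.00551) and another stood at -0.30 without a call. The call in the lower direction was Prkaa2, the other catalytic subunit of the kinase, at -0.49 (limma adjusted p = 0.0389).

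Among 12 tested genes with known daily rhythms in liver, 2 were called higher, 2 lower and 8 were not called, again near the 34.0% called over all genes, with a median of 0.076. Wee1, a cell cycle kinase driven by an E-box, rose by 1.39 ± 0.22 SE (limma adjusted p = 0.00276), from -2.95 to -2.46 in controls to -1.79 to -0.78 in furan livers. Nampt, the rate-limiting enzyme of NAD salvage and a target of the activating dimer, fell by 1.13 ± 0.25 SE (limma adjusted p = 0.00976), and Avpr1a, a vasopressin receptor, fell by 1.92 ± 0.27 SE (0.00187). Tfrc, the transferrin receptor, rose by 0.82 (0.00284). Por, Alas1, Gys2 and Ppara, rhythmic genes of liver metabolism, had differences of 0.28, 0.14, -0.005 and 0.01 and were not called.

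Glucocorticoids set the phase of the liver clock, and 10 genes that respond to them were all tested. Of these 2 were called lower and 8 were not called, with a median of -0.49. Over all tested probes 16.9% were called lower, and 34.0% of all genes were called in either direction by their brightest probe. Pck1, the gluconeogenic enzyme, fell by 1.16 ± 0.20 SE (limma adjusted p = 0.00419) and Klf9, a transcription factor, by 0.79 ± 0.16 SE (0.00664). The median over all tested probes was -0.033, so more probes lay below 0 than above it. All 10 differences of this list were below 0, but they come from the same livers and are not independent. Those not called ran from -1.22 for Dusp1, a phosphatase (limma adjusted p = 0.0539), and -0.85 for Igfbp1 to -0.17 for Tsc22d3 and -0.15 for Fkbp5.

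**Figure D5:**
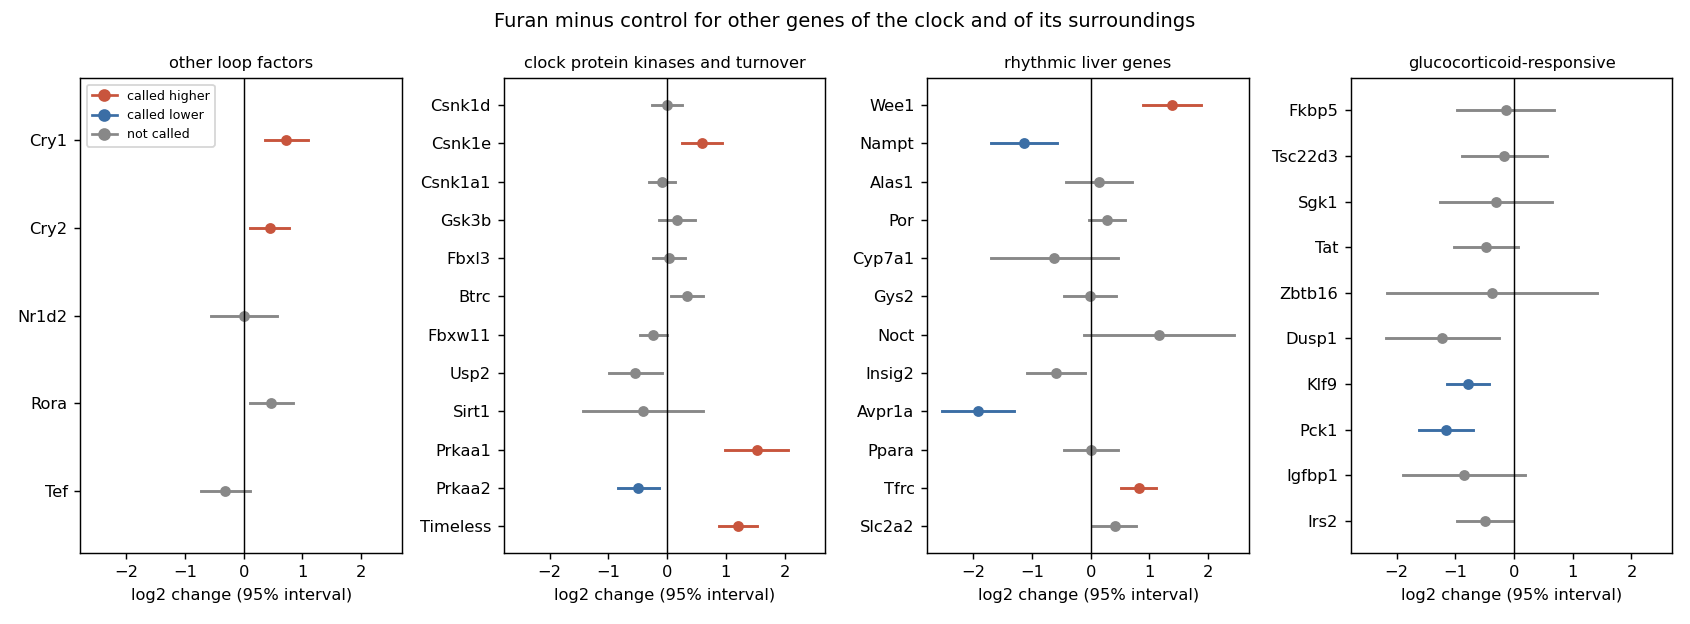
Furan minus control (log2, x axis) for the tested genes of 4 further lists, each by its brightest probe, with points at the difference and bars for the 95% interval of limma. Cry1, Prkaa1, Timeless and Wee1 lie above 0, Avpr1a, Nampt, Pck1 and Klf9 below it, and most other intervals reach or come close to 0.

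Cell markers moved with the groups too. Liver was borne out by 10 hepatocyte markers above background on every array, with array medians of 7.77 to 7.99 in controls and 7.08 to 7.41 in furan livers. Of these markers 7 were called lower and 3 were not called, beside 16.9% of all tested probes called lower. The median of the markers was -0.64. With quantile normalization Tf stood at 0.16, Serpina1 at 0.01 and Ahsg at 0.40. The unlogged levels of the 10 markers summed to 1930 to 2370 in controls and 1240 to 1560 in furan livers, without overlap. The named markers were Fga (-1.28, limma adjusted p = 0.000948), Hnf4a (-0.98, 0.00755) and Apob (-0.88, 0.0117). These lower marker levels lie beside the falls of Npas2, Arntl, Nfil3, Bhlhe40 and Nr1d1, and their part in those falls was not tested.

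Of 8 biliary markers 2 were called higher and 6 were not, beside 16.9% of all tested probes called higher. Their median difference was 1.26. Their summed unlogged level was 0.63 to 5.25 in controls, with control 2 the highest. It was 1.25 to 8.92 in furan livers, with furan 1 the highest. Epcam rose by 1.79 (limma adjusted p = 0.00748) and Sox9 by 0.48 (0.0219). Without control 2 and furan 1 together 6 clock probes were called higher and 4 lower, beside 13.9% and 13.2% of all probes, and the 2 calls lost were both Arntl probes (limma adjusted p = 0.0762 and 0.108). Macrophage, stellate and endothelial markers (7 tested each) and lymphocyte markers (4 tested) gave no call in either direction. Their smallest p were those of Adgre1 (-0.31, limma adjusted p = 0.152), Lrat (0.59, 0.137; another Lrat probe was called at 1.37, 0.0288), Cdh5 (-0.40, 0.0819) and Cd79b (-0.54, 0.47). Summed unlogged levels of these sets, in that order, were 13.9 to 24.5, 3.51 to 7.84, 6.45 to 23.6 and 0.21 to 0.40 in controls. In furan livers they were 13.1 to 16.7, 4.89 to 14, 12.1 to 14.8 and 0.25 to 0.37. Of the lymphocyte genes 1, Ms4a1, was above background on no array. The part of any of these cells in the clock levels was not tested.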

How the data were processed

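Per the labels, groups were 4 control and 4 furan livers, each from its own rat. Per the submitters' processing notes, the authors extracted spots using Agilent Feature Extraction 10.7. Deposited per array is a processed intensity after background subtraction, and the authors' deposited table holds the same intensities scaled to 1 common 75th percentile. Non-uniform and outlier spots were left out and the rest of a probe averaged as log2; 170 of 30367 probes lacked a usable spot on some array. A probe was tested where at least 50% of its spots were well above background on all 4 arrays of a group (20268 probes), with limma 3.58.1 (lmFit, eBayes) in R 4.3.3 and Benjamini-Hochberg adjustment, checked on simulated data. Precision is limited by 8 arrays. Probe positions are those of the array annotation (rn4), promoter windows those of RefSeq (GRCr8). Promoter sequences and gene names came from RefSeq tables.

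The 10 members and the gene lists were chosen with earlier results of these data known, and 1 lymphocyte marker is not reported here. Text names every member probe, up to 3 called genes with the largest change in each other list, or the one of lowest p in lists with no call, and the 5 genes most like Arntl and Dbp; further genes of those lists are given as examples chosen after their values were seen. Alternatives were the replicate number or slide as a block, each slide alone, normexp with an offset of 50, quantile normalization, the authors' table, other filters on dim probes, the brightest probe per gene, outlier spots kept, a variance trend and each array left out. The exact test of correlations was added after the data were seen.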

Additional observations from a re-analysis of the deposited data

Results flagged for a closer look

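In 72 groups of 4 livers, the highest or lowest value was compared with the rest by Dixon's ratio, the gap to the nearest value over the whole range, and marked past its 95% critical value, which chance alone passes in about 1 in 20 groups. A single liver stood apart 3 times. Dbp probe 2 was 1.136 in furan 4 and 1.88 to 1.98 in the other furan livers (ratio 0.887). Dbp probe 3 was 1.805 in furan 4 and 2.66 to 2.74 in the others (0.916). Both readings come from the same RNA, and furan 4 still lay above every control on both probes. Fga, the fibrinogen alpha chain, was 6.728 in furan 2 and 7.09 to 7.15 in the other furan livers (0.84).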

How the results depend on the processing

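Over the 21 alternatives the count of clock probes called higher stayed within 1.5 times of 6 except on slide 1 alone (0 higher, 0 lower) and with the brightest probe per gene (2). The count called lower moved to 1 on slide 2 alone and to 10 with normexp, a setting with the limits given for Clock, Per1 and Per3. Over all probes, slide 1 alone gave 322 higher and 207 lower, slide 2 alone 939 and 678, and normexp 7102 lower with 3070 higher, so 30.2% of its calls were higher against 50%; on slide 1 and slide 2 alone that share was 60.9% and 58.1%. With 1 array left out, 6 clock probes were called higher each time and 4 to 8 lower, with 2484 to 3370 higher and 2217 to 3403 lower over all probes. Among probes called in either fit, signs turned for Per3 probe 2 with normexp (-0.088), for Tf (0.162), Serpina1 (0.012) and Ahsg (0.395) with quantile normalization and for Lyve1, an endothelial marker, without control 1 (-0.738, in a range up to 0.541 over single arrays left out); the cause was not tested. Probes called in neither fit changed sign 90 times, none of them a clock probe. Same-numbered livers correlated at -0.3, 0.111, 0.279 and 0.04 in their deviations. These values gave no sign that the numbers pair the livers, but with 4 livers a group they cannot exclude it. With the replicate number as a block 6 clock probes were called higher and 5 lower, and 2638 and 2472 over all probes. Arntl lost its call there on the dimmer probe (limma adjusted p = 0.066). Dim probes are bounded by the lowest levels called above background, -8.03 to -6.88 across arrays.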
